A study of Homo sapiens with 22 samples.

Results

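The regions described here were 483 promoters at transcription starts that carried asymmetric dimethylation of arginine 2 of histone H3 (H3R2me2a) in NT2/D1 cells and had at least 100 sequencing tags. They were chosen by 3 deposited values: membership of the second of 3 region clusters that the authors deposited (cluster II), a position class for transcription starts, and a tag count of 100 or more. Regions on the short arm of chromosome 12, taken as starts below position 36000000, were left out. They are called high-tag promoters below. They came from 8819 regions in all and named 479 genes as the nearest. The steps were 2098 cluster II regions, 1503 of them in the promoter list, 1451 of those at starts, 503 of those with 100 or more tags, and 20 of the 503 on the short arm of chromosome 12.

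The study measured histone marks by chromatin immunoprecipitation followed by sequencing in NT2/D1, a human embryonal carcinoma line with properties of pluripotent cells that starts to differentiate under all-trans retinoic acid (ATRA). The series held 22 samples with antibodies against H3R2me2a, H3K27ac, H3K4me1 and H3K4me3 or with control IgG, in cells carrying a CRISPR/Cas9-mediated deletion of the methyltransferase gene PRMT6 and in CRISPR/Cas9 control cells. The 5 region lists used here came from 2 samples of control cells, 1 given 1 µM ATRA for 3 days and 1 without ATRA, both precipitated with a rat monoclonal antibody against H3R2me2a made in the laboratory. Cluster II was deposited under the sample without ATRA, and cluster III and the promoter list were deposited under the sample with ATRA. There was 1 library per condition, so no difference has a replicate check and no p-value is given. The sources used here do not give the criteria of the clusters, the library behind the tag count, the sequencing depth, the control used for calling regions or whether the control cells were 1 clone.

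PRMT6 is the main enzyme known to place H3R2me2a. The mark hinders binding of several readers and writers of H3K4 methylation to the tail of histone H3, and H3K4me3 is a mark of active promoters. Many human promoters lack a TATA box and instead hold short elements for general activators. One of these elements is recognised by the zinc finger protein ZNF143, its close relative ZNF76 and, together with the cofactor HCFC1, the protein THAP11, and it has the core ACTACA. ZNF143 is also known for driving small nuclear RNA genes, whose products build the spliceosome.

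The core was picked as the 6-base word with the largest gap between high-tag promoters and cluster III start promoters. The size of that gap is thus partly set by the choice. Promoter sequences are shown first to set out this element and its longer form. They are RefSeq promoters on GRCh38.p14, each 250 bases before to 50 bases after the first start listed for the gene, written 5′ to 3′ on the strand of the gene. The first 5 are the named genes with most tags whose promoter held the long form of the element, spelled ACTACA, any 2 bases, then TCC, on either strand. Each is shown as the 60 bases around the copy nearest to the start, with the element in capitals.
FBXL19: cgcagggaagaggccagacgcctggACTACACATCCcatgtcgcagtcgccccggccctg
PAFAH2: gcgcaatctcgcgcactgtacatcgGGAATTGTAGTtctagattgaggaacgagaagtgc
MRPL24: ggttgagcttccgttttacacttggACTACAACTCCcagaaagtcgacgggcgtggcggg
COPS7B: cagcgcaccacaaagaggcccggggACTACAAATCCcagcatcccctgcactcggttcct
NTHL1: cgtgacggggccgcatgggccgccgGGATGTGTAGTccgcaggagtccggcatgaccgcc
The windows lie at chr16:30922674-30922733 on the plus strand for FBXL19, chr1:25998148-25998207 on the minus strand for PAFAH2, chr1:156741109-156741168 on the minus strand for MRPL24, chr2:231781638-231781697 on the plus strand for COPS7B and chr16:2047815-2047874 on the minus strand for NTHL1. The element ran in the sense of the gene in FBXL19, MRPL24 and COPS7B, and as its reverse complement in PAFAH2 and NTHL1. PAFAH2, MRPL24, COPS7B and NTHL1 each held 2 copies of the long element in the whole promoter.

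The other 3 sequences show promoters that lacked the long element. PRCC, second by tag count, held 3 copies of the core alone, all as the reverse complement and shown in capitals (chr1:156767285-156767584, plus strand). KMT2A, first by tag count, held neither form and had a GC content of 76.3%, with 3 GC boxes, spelled GGGCGG, in capitals (chr11:118436242-118436541, plus strand). HIST2H2AC, the widest region, is shown by the 60 bases around the TATA box nearest to its start, spelled TATAAA and in capitals (chr1:149886862-149886921, plus strand).
PRCC: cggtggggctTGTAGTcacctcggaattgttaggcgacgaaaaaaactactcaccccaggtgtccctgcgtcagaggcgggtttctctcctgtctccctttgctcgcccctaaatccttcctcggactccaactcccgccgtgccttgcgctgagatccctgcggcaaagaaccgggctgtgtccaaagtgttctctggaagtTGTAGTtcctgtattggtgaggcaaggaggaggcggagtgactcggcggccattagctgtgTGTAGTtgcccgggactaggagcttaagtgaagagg
KMT2A: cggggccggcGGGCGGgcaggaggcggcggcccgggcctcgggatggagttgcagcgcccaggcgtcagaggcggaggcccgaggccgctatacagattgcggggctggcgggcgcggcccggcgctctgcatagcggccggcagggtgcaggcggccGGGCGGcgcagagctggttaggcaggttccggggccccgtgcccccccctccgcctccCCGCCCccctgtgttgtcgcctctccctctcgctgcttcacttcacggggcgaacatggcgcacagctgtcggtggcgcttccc
HIST2H2AC: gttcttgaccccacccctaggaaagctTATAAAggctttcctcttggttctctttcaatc

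A tag count of 100 or more was part of the choice, and 483 of the 1420 cluster II start promoters outside the short arm of chromosome 12 met it (34%), against 15 of 2339 cluster III start promoters (0.641%). Cluster I held 19 start promoters. The remaining 937 cluster II start promoters, called low-tag promoters below, and the 2339 cluster III start promoters serve as comparisons. Of the 479 high-tag genes, 11 were also among the 918 genes named at low-tag promoters. Likewise, 11 were among the 2211 genes named at cluster III start promoters. Each region lay in at most 1 cluster and named 1 nearest gene, so a small overlap says little about how distinct the sets are.

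Among the high-tag promoters, 316 had 100 to 199 tags, 99 had 200 to 299 and 68 had 300 or more. The median was 158 tags in high-tag promoters, with quartiles of 123.5 and 233, against 56 in low-tag promoters and 29 in cluster III. KMT2A, which encodes a methyltransferase of H3K4, had 1030 tags over 998 bp (chr11:118306473-118307470; region coordinates are on hg19). PRCC, a gene fused to TFE3 in some renal carcinomas, had 867 tags (chr1:156736533-156737644), and FBXL19, whose F-box protein binds unmethylated CpG DNA, had 770 (chr16:30933475-30935084). BAD, a promoter of apoptosis of the BCL2 family, had 732 tags (chr11:64037261-64039250), and SNX12, a sorting nexin, had 728 (chrX:70287910-70288890). KMT2A stood well above the second region, and 20 regions of the set reached 500 tags.

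The next 7 by tag count mixed small nuclear RNA genes with genes of the nuclear envelope, lipids and mitochondria. RNVU1-18, a variant gene of the spliceosomal U1 RNA, had 694 tags (chr1:149222847-149225120), and a further U1 gene on the unplaced contig GL000192.1 had 592. RNU2-2P, a gene of the U2 RNA, had 556 tags (chr11:62608462-62609510). NDC1, a membrane protein of the nuclear pore, had 601 tags (chr1:54303772-54304765) and PAFAH2, an acetylhydrolase of platelet-activating factor, had 592 (chr1:26324213-26325418). MRPL24, a protein of the large subunit of the mitochondrial ribosome, had 553 tags (chr1:156710457-156711484). ZNF143 itself also had 553 tags (chr11:9481874-9482888), and its own promoter held neither the core nor the long element. Reads from U1 and U2 genes can come from near-identical copies elsewhere, so the tag counts of single copies are uncertain.

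At the limit, FYCO1, GRK4, HIST1H3H, GAPVD1 and AL603926.1 lay just inside with 100 tags each, and AURKAIP1, RNU1-122P, C11orf58, DPAGT1 and ZNF317 lay just outside with 99 each. Histone or small RNA genes stood on both sides of the limit.

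High-tag promoters were wider than the comparisons. Their median width was 742 bp (order-statistic 95% interval 723 to 761), against 466 bp (457 to 474) in low-tag promoters and 522 bp (513 to 529) in cluster III. A wider region can collect more tags, so width is not independent of the choice by tag count. Relative to width, high-tag promoters had a median of 217 tags per kb, against 120 in low-tag promoters and 54.6 in cluster III. Tags per kb is built from the tag count, so these gaps are partly set by the choice too. The widest were HIST2H2AC at 3256 bp, HIST2H2AA3 at 2830 bp and RNVU1-18 at 2274 bp, 2 histone genes and a U1 gene. The narrowest were SLC37A3 at 438 bp, CTA-397H3.3 at 448 bp and RP11-57G10.8 at 474 bp.

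**Figure D1:**
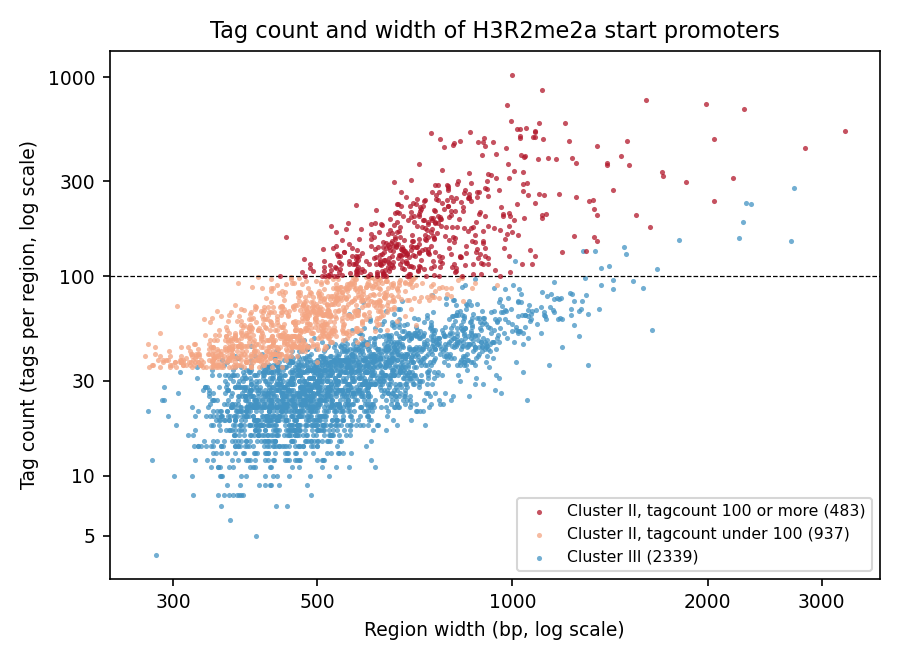
Tag count (tags per region, log scale) against region width (bp, log scale) for the 483 high-tag cluster II start promoters, the 937 low-tag ones and the 2339 cluster III start promoters, 1 point per region; the dashed line marks the limit of 100 tags. Cluster II regions mostly lie above cluster III regions of similar width, with some overlap, and 15 cluster III regions reach the limit.

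The cluster II list gave a pair of intervals per region, and the libraries behind the 2 intervals are not given. The second was the wider in 412 of the 483 high-tag promoters, and its median width was 908 bp. In low-tag promoters it was the wider in 857 of 937, with a median of 666 bp. The median ratio of the second width to the first was 1.21 (1.19 to 1.24) in high-tag promoters and 1.42 (1.39 to 1.45) in low-tag promoters. The ratio divides by the first width, which was larger in high-tag promoters, so it is not independent of the choice either. The pair lay close together, with a median gap between their middles of 55.5 bp in high-tag promoters and 54 bp in low-tag promoters.

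The regions sat close to the start and mostly on its upstream side. The authors' signed distance to the start was negative, which means upstream, in 347 of the 483 high-tag promoters (71.8%, Clopper-Pearson 95% interval 67.6 to 75.8). The share was 69.1% in low-tag promoters and 55.7% in cluster III. The difference from low-tag promoters was 2.79 percentage points, with a Newcombe 95% interval of -2.27 to 7.68 that includes 0. The difference from cluster III was 16.1 points (11.5 to 20.5). These intervals and all others below cover counting error only. The 15 cluster III start promoters with 100 or more tags did not show the lower share, and the difference from them was -1.49 points (-17.8 to 24.1).

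The median distance was -41 bp (-51 to -34) in high-tag promoters, -27 bp (-33 to -22) in low-tag promoters and -8 bp (-11 to -5) in cluster III. Within 100 bp of the start lay 60% of the high-tag promoters, against 72.1% of the low-tag ones, a difference of -12.1 points (-17.3 to -6.91), and 61.9% of cluster III. Within 250 bp lay 90.1% of the high-tag promoters, 90.1% of the low-tag ones and 84.4% of cluster III. Farthest upstream were CERS2 at -1516 bp, KMT2D at -1056 bp and RP11-325P15.2 at -1028 bp, and farthest downstream were RNF40 at 1369 bp, CA11 at 1331 bp and HIST1H1B at 1128 bp. CENPT, a protein of the inner kinetochore, had 3 high-tag regions with 155, 184 and 155 tags, and COPS7B, a subunit of the COP9 signalosome, and the zinc finger gene ZFP64 had 2 each, at different transcript starts.

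A RefSeq promoter was matched by symbol for 381 of the 483 regions, which gave 377 distinct promoters. The core ACTACA, searched on both strands with no mismatch, was present in 190 of the 377 high-tag promoters (50.4%, 45.2 to 55.6). It was present in 229 of 709 low-tag promoters (32.3%, 28.9 to 35.9) and in 141 of 1692 cluster III start promoters (8.33%, 7.06 to 9.75). Over all 27305 RefSeq promoters the share was 8.95%. High-tag promoters exceeded low-tag promoters by 18.1 points (12 to 24.1) and cluster III by 42.1 points (36.8 to 47.2). Cluster III stood near the share of all promoters, and both kinds of cluster II promoter stood above it.

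The long element, which contains the core, was more selective. It was present in 152 of 377 high-tag promoters (40.3%, 35.3 to 45.5), in 155 of 709 low-tag promoters (21.9%, 18.9 to 25.1) and in 49 of 1692 cluster III start promoters (2.90%, 2.15 to 3.81). Over all RefSeq promoters the share was 2.09%, and over the 15843 protein-coding ones it was 2.93%. The difference was 18.5 points (12.7 to 24.3) from low-tag promoters and 37.4 points (32.5 to 42.5) from cluster III. The core and the long element were picked from the promoters under comparison: ACTACA had the largest gap between high-tag promoters and cluster III of 2080 distinct 6-base words. The letters first listed for ZNF143, 1 base stricter than the long element, gave 21.2% in high-tag promoters, 12.3% in low-tag promoters, 1.36% in cluster III and 1.08% over all RefSeq promoters. The order of the sets was the same with those letters.

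The core written backwards, ACATCA, has the same bases in the opposite order. It was present in 5.31% of high-tag promoters, 4.51% of low-tag promoters and 4.73% of cluster III, against 11.1% of all RefSeq promoters. The backward core differed between high-tag promoters and cluster III by 0.577 points (-1.58 to 3.47), an interval that includes 0. Because ACTACA was picked as the word with the largest gap, a smaller gap for ACATCA was set by that choice. It is thus a description and no test of the core.

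**Figure D2:**
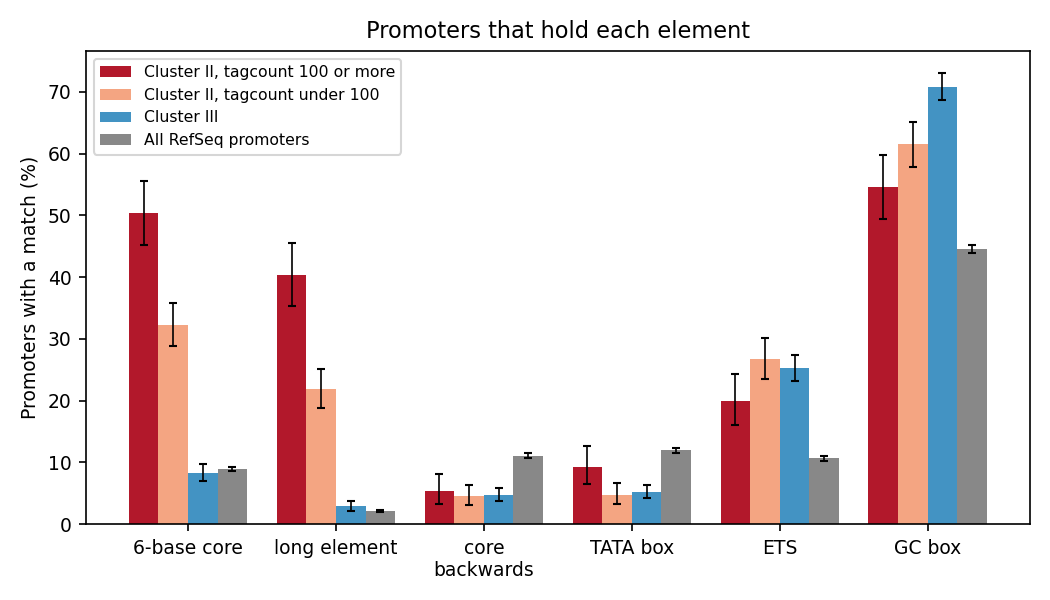
Share of promoters (%) with each element in high-tag cluster II, low-tag cluster II, cluster III and all RefSeq promoters; bars are shares and error bars are exact 95% intervals. The core reaches 50.4% and the long element 40.3% in high-tag promoters, and the core written backwards lies between 4.51% and 5.31% in the region sets. The core was picked for its gap to cluster III, so a smaller gap for the backward core was set by that choice.

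Several copies in 1 promoter set the high-tag promoters apart further. At least 2 copies of the long element were found in 39 of 377 high-tag promoters (10.3%, 7.46 to 13.9), in 12 of 709 low-tag promoters (1.69%) and in 3 of 1692 in cluster III (0.177%). At least 3 copies of the core were found in 11 high-tag, 2 low-tag and 1 cluster III promoters. Examples with 2 copies of the long element, beyond those printed above, were ZNF140 (230 tags) and ZNF225 (218 tags), both KRAB-type zinc finger genes, and UQCR10 (176 tags), a subunit of respiratory complex III.

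Read from the genome side, most promoters with several copies were in cluster II. Of the 68 protein-coding RefSeq promoters with 2 or more long elements, 39 belonged to high-tag genes (57.4%, 44.8 to 69.3), 51 to cluster II start promoters of either kind (75%, 63.0 to 84.7) and 3 to cluster III. Of the 396 with 1 copy, 109 were high-tag (27.5%, 23.2 to 32.2) and 249 were in cluster II (62.9%, 57.9 to 67.7). Of the 14494 without the core, 183 were high-tag (1.26%) and 646 were in cluster II (4.46%). The share of promoters in cluster III was 4.41% with several copies (0.919 to 12.4), 11.4% with 1 copy and 10.4% without the core. The first interval includes the other 2 shares. Genes named at any region made up 80.9% with several copies, 81.1% with 1 copy and 21.2% without the core.

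In cluster II the share with the long element rose from bin to bin up to 299 tags. The core inside it was picked for its frequency in promoters with 100 or more tags. A rise across that limit is thus partly set by the choice. The long element was present in 15.4% of cluster II start promoters with 35 to 49 tags, 23.3% with 50 to 74, 28.8% with 75 to 99, 40.2% with 100 to 149, 42.5% with 150 to 199 and 48.0% with 200 to 299. It was then present in 11 of 44 with 300 or more tags (25%, 13.2 to 40.3). Leaving out histone and small RNA genes from this bin alone gave 11 of 37 (29.7%, 15.9 to 47.0). These exact intervals overlap that of the bin before (36.3 to 59.8), which kept those genes. Overlap of separate intervals does not test the drop, and no interval of the difference was computed. Within the high-tag set, promoters with the long element had a median of 157 tags (140 to 170) and those without it 153.5 (141 to 167), so the 2 intervals overlapped widely. In cluster III the share was 4.90% with 35 to 49 tags, 2.01% with 50 to 74 and 0 of 29 with 75 to 99, which allows a share of up to 10.3%. These were below cluster II at the same tag counts. For the core the last of these bins did not separate the clusters: it was present in 68 of 177 cluster II promoters with 75 to 99 tags (38.4%, 31.2 to 46.0) and in 7 of 29 in cluster III (24.1%, 10.3 to 43.5), and the intervals overlap. Above 99 tags cluster III left 7 promoters, none with the element, which allows a share of up to 42.9%.

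**Figure D3:**
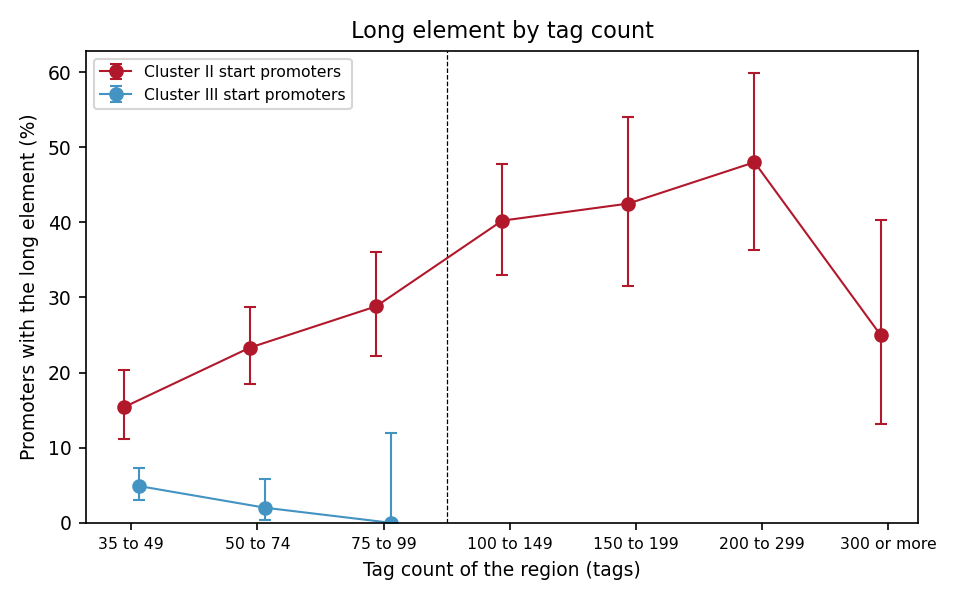
Share of promoters (%) with the long element by tag count of the region, for cluster II and cluster III start promoters, with exact 95% intervals; bins with fewer than 20 promoters are not drawn and the dashed line marks the limit of 100 tags. In cluster II the share climbs to 48.0% at 200 to 299 tags and is 25% at 300 or more, while cluster III does not exceed 4.90%.

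The element lay mostly in the stretch just upstream of the start. The 192 copies in high-tag promoters had a median position of -84.5 bases from the start, with quartiles of -131 and -57.8, and 58.3% of them lay in the last 100 bases before the start. Only 2 of the 192 copies lay after the start. The sense direction was used by 115 copies (59.9%, 52.6 to 66.9). In low-tag promoters the 168 copies had a median of -79 with 59.5% in sense, and in cluster III the 52 copies had a median of -83 with 69.2% in sense (54.9 to 81.3). The 653 copies in all RefSeq promoters had a median of -87, close to the medians of the region sets.

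**Figure D4:**
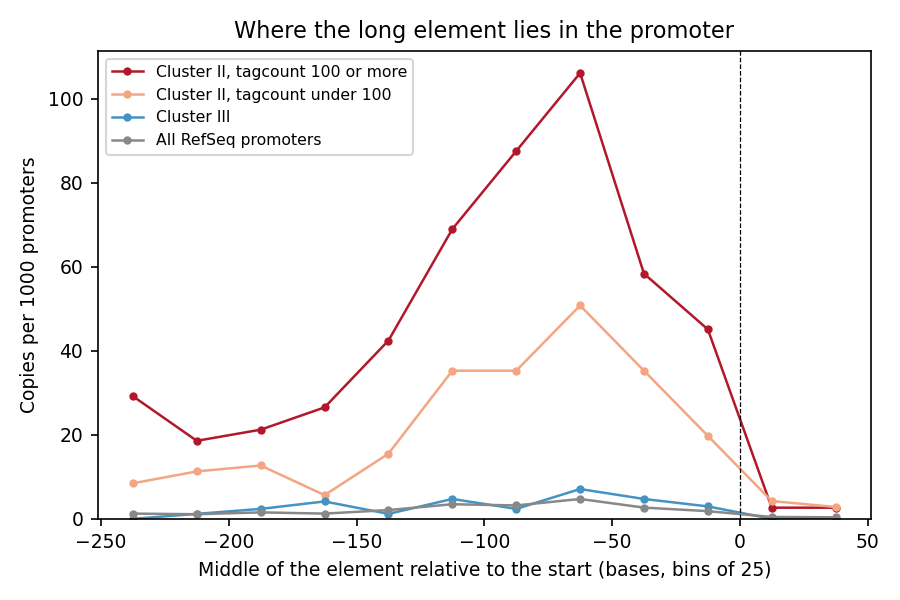
Copies of the long element per 1000 promoters in bins of 25 bases, by the distance of the middle of the element from the start (bases; negative is upstream, dashed line at the start). High-tag promoters peak at 106 copies per 1000 promoters between -75 and -50, and their copies become rare after the start.

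The gap in the long element persisted within bands of GC content. The median GC content was 61% (59.7 to 61.7) in high-tag promoters, 62.3% in low-tag promoters and 65% in cluster III. Under 55% GC, the long element was present in 25% of high-tag, 14.3% of low-tag and 1.39% of cluster III promoters. From 55 to 65% GC it was present in 47.1% of high-tag, 23.0% of low-tag and 3.03% of cluster III promoters. At 65% GC or more it was present in 42.5% of high-tag, 25% of low-tag and 3.18% of cluster III promoters. All 6 differences in the long element had 95% intervals above 0, and the smallest was that from low-tag promoters under 55% GC at 10.7 points (0.685 to 21.5). For the core, the gap to low-tag promoters was seen only from 55% GC upwards. Under 55% GC the core was present in 34.8% of high-tag and 33.1% of low-tag promoters, a difference of 1.67 points (-10.2 to 14.0) that includes 0, and in 12% of cluster III. From 55 to 65% GC the core exceeded low-tag promoters by 22.5 points (13.1 to 31.4), and at 65% GC or more by 23.6 points (12.8 to 33.9).

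Because the regions name a transcript, the search was repeated at the start of that transcript in GENCODE 44. There the long element was present in 205 of 433 high-tag starts (47.3%, 42.6 to 52.2), 25% of low-tag starts and 2.87% of cluster III starts. The core was present in 59.1% of high-tag, 36.6% of low-tag and 8.13% of cluster III starts. Both shares were higher in cluster II than at the first RefSeq start of the gene.

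Other promoter elements differed less between the sets, or were less frequent in high-tag promoters than in the comparisons. The GC box, bound by factors of the SP family, was present in 54.6% of high-tag promoters, 61.5% of low-tag promoters and 70.9% of cluster III, with differences of -6.85 points (-13.0 to -0.709) from low-tag promoters and -16.2 points (-21.7 to -10.8) from cluster III. Over all RefSeq promoters it was 44.6%, and over protein-coding ones 58.5%. The ETS element CCGGAAG was present in 19.9% of high-tag, 26.8% of low-tag and 25.2% of cluster III promoters, with differences of -6.90 points (-11.9 to -1.57) from low-tag promoters and -5.34 points (-9.62 to -0.573) from cluster III. All 3 sets were above the 10.7% of all RefSeq promoters and the 14.2% of protein-coding ones. The CCAAT box was present in 36.9% of high-tag, 35.5% of low-tag and 35.6% of cluster III promoters, against 35.7% of all RefSeq promoters. The NRF1 letters first listed matched 10.9% of high-tag, 11.6% of low-tag and 13.1% of cluster III promoters, and the YY1 letters first listed 3.18% of high-tag, 3.53% of low-tag and 4.31% of cluster III promoters. The cAMP response element TGACGTCA was present in 3.45% of high-tag, 2.12% of low-tag and 4.14% of cluster III promoters. The E-box CACGTG was present in 10.3% of high-tag, 8.60% of low-tag and 12.2% of cluster III promoters. The POU octamer ATGCAAAT was present in 1.86% of high-tag, 1.69% of low-tag and 0.946% of cluster III promoters. Over all RefSeq promoters, the shares were 6.28% for the NRF1 letters, 1.28% for the YY1 letters, 1.98% for the cAMP response element, 7.43% for the E-box and 1.80% for the octamer. The RAR direct repeat was in none of the 377 high-tag promoters, which allows a share of up to 0.796%, and it was in 1 of all 27305 RefSeq promoters.

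The TATA box was present in 35 of the 377 high-tag promoters (9.28%, 6.55 to 12.7), in 4.80% of low-tag promoters and in 5.20% of cluster III. The high-tag share was near the 9.63% of protein-coding RefSeq promoters and below the 12% of all RefSeq promoters. Of these 35, 16 were histone genes. Without histone and small RNA genes the TATA box was in 5.38% of high-tag, 4.02% of low-tag and 5.04% of cluster III promoters. The differences were then 1.37 points (-1.21 to 4.49) from low-tag promoters and 0.338 points (-1.89 to 3.36) from cluster III, and both intervals include 0.

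Histone genes and small RNA genes had higher shares among high-tag promoters than in either comparison. Histone genes made up 26 of the 479 high-tag genes (5.43%, 3.58 to 7.85), 16 of 918 low-tag genes (1.74%) and 12 of 2211 cluster III genes (0.543%). The difference was 3.69 points (1.68 to 6.18) from low-tag genes and 4.89 points (3.14 to 7.30) from cluster III genes. Of the 26 histone regions, 19 lay on chromosome 6, between positions 26026621 and 27841871, and 7 on chromosome 1. HIST2H2AC had 539 tags, HIST2H4B 492, HIST2H2AA3 444 and HIST2H4A 404, all on chromosome 1. Some histone counts came from wide regions. HIST1H2AJ had 178 tags over 1630 bp and HIST1H3H 100 over 957 bp, against a median width of 742 bp in high-tag promoters. Others were denser, such as HIST1H4K with 323 tags over 926 bp. A wider region can reach the limit at a lower density, and density was not compared for histone genes as a set. HIST2H4A and HIST2H4B, and HIST2H2AA3 and HIST2H2AA4, are near-identical copies, so their separate counts are uncertain. None of the 24 histone promoters with a RefSeq sequence held the long element, which allows a share of up to 12.5%, and 4 held the core.

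Small RNA genes made up 22 of 479 high-tag genes (4.59%, 2.90 to 6.87), 6 of 918 low-tag genes (0.654%) and 13 of 2211 cluster III genes (0.588%). The RefSeq class of small nuclear RNA was given to 18 high-tag, 1 low-tag and 4 cluster III genes. Several of the high-tag list have symbols of the form used for pseudogenes, such as RNU1-59P with 468 tags, RNU1-27P with 406 and RN7SKP114 with 109. The difference was 3.94 points (2.22 to 6.23) from low-tag genes and 4 points (2.41 to 6.28) from cluster III genes. Their median was 329 tags, against 158 over all high-tag promoters, and the range was 109 to 694. RNVU1-18 had 694 tags, U1 592, RNU2-2P 556 and RNU1-4, a U1 gene, 481. No snoRNA gene was among the 479, which allows a share of up to 0.626%. At the named transcript, 3 of 19 small RNA starts held the core and none held the long element, which allows a share of up to 15.8%. U1 and U2 genes have many near-identical copies, so the number of separate genes is uncertain too.

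**Figure D5:**
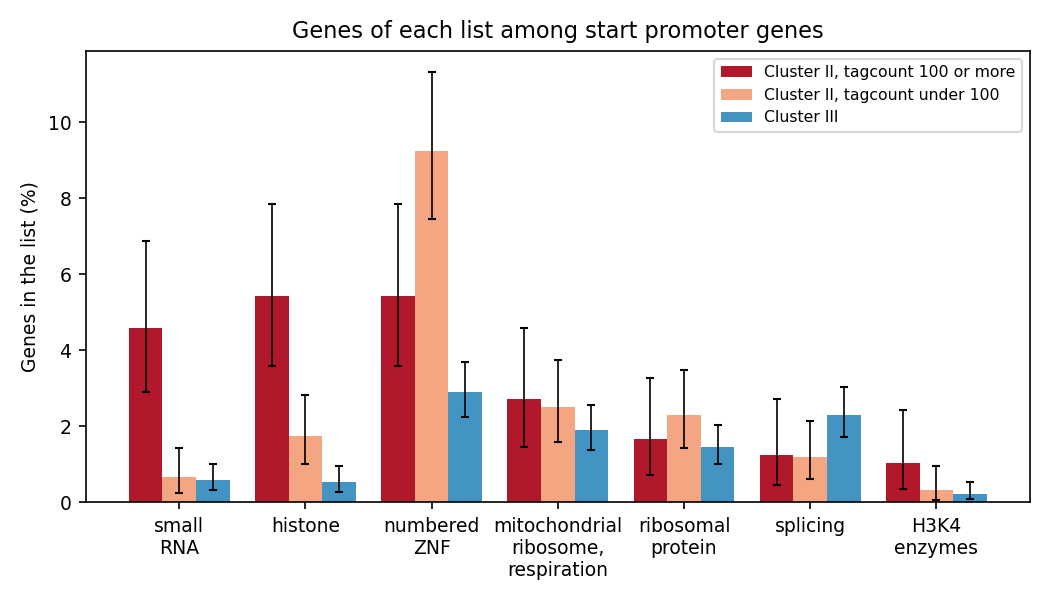
Share of genes (%) that belong to each gene list among genes of high-tag cluster II, low-tag cluster II and cluster III start promoters, with exact 95% intervals. Small RNA genes at 4.59% and histone genes at 5.43% stand above both comparisons in the high-tag set, and numbered ZNF genes are highest in the low-tag set at 9.26%.

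Numbered zinc finger genes, many of which encode DNA-binding repressors, followed another order. They were 26 of 479 high-tag genes (5.43%), 85 of 918 low-tag genes (9.26%) and 64 of 2211 cluster III genes (2.89%). The difference was -3.83 points (-6.49 to -0.880) from low-tag genes and 2.53 points (0.664 to 5.02) from cluster III genes. ZNF143 had 553 tags, ZNF76 502, ZNF343 303 and ZNF140 230. Of 24 with a RefSeq promoter, 11 held the long element (45.8%, 25.6 to 67.2), near the 40.3% of all high-tag promoters, and 15 held the core. In the low-tag set 28 of 77 held the long element (36.4%, 25.7 to 48.1). Chromosome 19, which holds many such genes, carried 8.90% of the high-tag regions, 13.9% of the low-tag ones and 4.96% of cluster III.

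Genes for writers and erasers of H3K4 methylation, with partners of the writers, were few in number but held the highest region. The list of 28 such genes had 5 members among high-tag genes (1.04%), 3 among low-tag genes (0.327%) and 5 among cluster III genes (0.226%). Beside KMT2A with 1030 tags they were RBBP5, a core subunit of the KMT2 complexes, with 225, the methyltransferases KMT2B with 141 and KMT2D with 137, and MEN1, whose product menin binds KMT2A and KMT2B, with 111. The difference from low-tag genes was 0.717 points (-0.151 to 2.11), which includes 0, and that from cluster III was 0.818 points (0.148 to 2.20). None of these 5 promoters held the core or the long element, which allows a share of up to 60% and so does not set them apart from the 50.4% and 40.3% of all high-tag promoters.

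Mitochondrial genes were present at about the same share in each set. They were 13 of 479 high-tag genes (2.71%), 23 of 918 low-tag genes (2.51%) and 42 of 2211 cluster III genes (1.90%). MRPL24 had 553 tags, MRPL11 218, UQCR10 176 and the ATP synthase subunit ATP5J 155. Of 11 with a RefSeq promoter, 7 held the long element (63.6%, 30.8 to 89.1), an interval that includes the 40.3% of all high-tag promoters. In the low-tag set 3 of 21 held it (14.3%, 3.05 to 36.3). Ribosomal protein genes were 8 high-tag (1.67%), 21 low-tag (2.29%) and 32 cluster III genes (1.45%). They were led among high-tag genes by RPL32 with 199 tags, RPS3 with 194, RPS26 with 187 and RPS27A with 150, and RPS3 and RPS26 held the long element. Splicing factor genes were 6 high-tag (1.25%), 11 low-tag (1.2%) and 51 cluster III genes (2.31%), led in the high-tag set by PRPF31 with 336 tags, DDX23 with 265, LUC7L with 153 and SRRM2 with 136.

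The remaining lists gave small counts. Ubiquitin enzymes were 8 high-tag (1.67%), 16 low-tag (1.74%) and 44 cluster III genes (1.99%). The high-tag ones were led by FBXL19 with 770 tags, USP48 with 216, FBXW11 with 181 and UBR2 with 172. Cell cycle genes were 5 high-tag (1.04%), 7 low-tag (0.763%) and 21 cluster III genes (0.95%). Among the high-tag ones were the pocket protein gene RBL1 with 247 tags and the spindle checkpoint genes BUB1B with 167 and BUB3 with 141. The DNA repair list had 2 high-tag (0.418%), 6 low-tag (0.654%) and 18 cluster III genes (0.814%). The 2 high-tag genes were the base excision glycosylases NTHL1 with 241 tags and MUTYH with 202, and both promoters held the long element, a count too small to set beside the 40.3% of all high-tag promoters. Translation factors were 3 high-tag (0.626%), 10 low-tag (1.09%) and 24 cluster III genes (1.09%). Genes of RNA polymerase II, Mediator and general transcription factors were 3 high-tag (0.626%), 6 low-tag (0.654%) and 21 cluster III genes (0.95%). Proteasome genes were 2 high-tag (0.418%), 10 low-tag (1.09%) and 10 cluster III genes (0.452%). The high-tag ones were PSMC3 with 163 tags and PSMA2 with 130. Single genes stood for other histone modifiers (HDAC8, 214 tags), remodelling (SRCAP, 107), Polycomb (ASXL1, 128), tRNA synthetases (LARS, 245), microRNAs (MIR4738, 497), pluripotency (LIN28A, 111) and retinoid genes (RDH14, 152). Each of these lists was 0.209% of high-tag genes, against 0.109% to 0.327% of low-tag and 0.136% to 0.678% of cluster III genes. No HOX gene, neural lineage gene or arginine methyltransferase gene was among the 479, which allows a share of up to 0.626%. None was among the 918 low-tag genes either, and cluster III had 5 HOX, 2 neural and 3 arginine methyltransferase genes of 2211, shares below that limit. In all, 136 of the 479 genes were in any of the 23 lists.

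By RefSeq class, 87.5% of high-tag genes were protein-coding, against 89.8% of low-tag and 87.3% of cluster III genes. Chromosome 1 carried 110 of the 483 high-tag regions (22.8%, 19.1 to 26.8), against 13.1% of the low-tag regions and 20.4% of cluster III. The difference from low-tag regions was 9.65 points (5.44 to 14.1), and that from cluster III was 2.38 points (-1.52 to 6.63). A second start on the opposite strand within 1 kb upstream was found for 28.6% of high-tag promoters (24.1 to 33.5), 25.7% of low-tag promoters and 26.8% of cluster III, against 16.6% of all RefSeq promoters. Among protein-coding promoters alone it was 28.5% of high-tag, 25.3% of low-tag and 26.8% of cluster III, against 18.3% of all protein-coding RefSeq promoters. Another region lay within 5 kb of 14.7% of high-tag, 15.9% of low-tag and 19.1% of cluster III promoters.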

How the data were processed

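Files gave each region's coordinates, summit, nearest transcript and distance to it, a position class (start window 1250 bp) and tag counts. The authors' tag counts, in the column tagcount, are whole numbers. They were taken as raw, and no scaling for depth was applied here. The submitters' processing notes name bcl2fastq, Bowtie2, MACS 1.4, deepTools and hg19 (GRCh37) without roles. Depth per library, the peak-calling control and the cluster criteria are not stated there.

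Lists were joined on chromosome, start and stop. Positive distances were taken as downstream: for 822 transcripts with several regions, this sign put the implied starts within a median of 100 bp, against 16575 bp with the other sign. The point of the region that was measured is not given. Tag counts, clusters and position classes chose the regions and are descriptions. Shares carry exact Clopper-Pearson 95% intervals, differences of shares Newcombe 95% intervals, and medians order-statistic 95% intervals (Python 3.11.15, scipy 1.17.1, statsmodels 0.14.6, pandas 2.3.3), all for counting error only. A share of 0 is given with the limit that 3 counts allow, which is not the exact interval drawn in the figures. For 0 of 29 cluster III promoters with 75 to 99 tags the exact upper limit was 11.9%. Motif counting and intervals were tested on simulated data. No p-values were computed.

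Promoters came from RefSeq (GRCh38.p14) by gene symbol or synonym, with the first start listed per gene, and from GENCODE 44 by transcript identifier, which held 3615 of the 3919 transcripts named at start promoters. Coordinates of the 2 builds were never compared. Motifs were searched with no mismatch on both strands. Overlapping elements were not excluded: the long element contains the core.

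The regions, the gene lists and the motifs were chosen with earlier results of these data known. ACTACA, the long element and the core written backwards were added after comparing 6-base words of the same promoters. Other spellings of the ZNF143 element, a BANP element (1.06% of high-tag promoters, 1.13% of low-tag promoters, 1.77% of cluster III), a small nuclear RNA promoter element and a CTCF element were also looked at and are not all reported. Genes were named by rule: the 12 with most tags, 5 on each side of the limit, the 3 widest, narrowest and farthest on each side, genes with several regions, and up to 4 per list. Exceptions, chosen after their values were seen, are ZNF225, MEN1, BANP and UCKL1. Sequences are of 8 named genes, the highest tag count first within each element. The other 20 samples were not analysed here.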

Additional observations from a re-analysis of the deposited data

How the results depend on the processing

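A total of 26 results were recomputed under alternatives, which gave 106 values. Of these, 84 stayed within the interval of the reported value or within 1.5 times the reported count, 21 moved and 1 changed sign; the cause was not tested. The change of sign was in the share upstream of the start, high-tag promoters minus cluster III, which was 16.1 points over all cluster III start promoters and -1.49 points when cluster III also had 100 or more tags (15 regions). With that choice the gap in the core was 50.4 points (14.6 to 55.4), set against 0 of 7 promoters, so it adds nothing firm.

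With a tag limit of 150 the count was 264 regions, the median width was 821 bp, small RNA genes were 7.25% of genes, and their difference was 6.45 points from low-tag and 6.66 points from cluster III genes. With a limit of 80 the median width was 695 bp, and with the second interval it was 908 bp. In the 100 bases before and 50 after the start, the long element fell to 26.8% of high-tag promoters, the core to 34.7%, the TATA box to 5.84% and the GC box to 43.2%, and the median GC content was 62.7%. On the sense strand alone the shares were 26.8%, 34.7% and 36.9% for the long element, the core and the GC box. A shorter window or 1 strand finds fewer matches by construction.

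The starts of named transcripts and the removal of histone and small RNA genes were chosen after seeing the data. Named transcripts gave 47.3% for the long element and 59.1% for the core, with differences from cluster III of 44.5 and 51.0 points. The removal gave 5.38% for the TATA box in high-tag promoters. Keeping the short arm of chromosome 12, protein-coding genes alone, named chromosomes alone and 1 count per region moved no value. No paired analysis was possible because each condition had 1 library. No library could be left out for the same reason, and no distance is given for the second interval. Tag counts of single regions carry no error estimate.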

Other observations

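A pair of values was seen outside the rule for named genes, after the data were examined. BANP, which encodes a protein that binds a CGCG element, had 502 tags in its high-tag region (chr16:87984196-87985278, hg19), and its RefSeq promoter held neither the core nor the long element. UCKL1, a uridine-cytidine kinase homologue, had 529 tags, and its RefSeq promoter held 5 copies of the core and none of the long element.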
